A study of Homo sapiens with 24 samples.

Results

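The 10 enzymes described here belong to glycolysis and lactate formation: HK1, HK2, GPI, PFKP, ALDOA, TPI1, GAPDH, PGK1, ENO1 and LDHA. They were taken by gene symbol from 19692 entries of a table of reads per gene, and all 10 members had an entry. A filter on low counts kept 10038 entries, among them 8 of the 10 enzymes. GPI and LDHA did not pass. The list was drawn up with earlier results of the same libraries known, among them that the line difference of ENO1 changed along the chase.

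The data came from catabolic SLAM-seq, in which cells build 4-thiouridine (s4U) into new RNA and alkylation then makes it read as C, so that a read with T>C conversions marks RNA made during the pulse. In all, 2 HEK293 lines were compared, and HEK293 is an established human embryonic kidney line. The ZC3H7B-OE line overexpressed Flag-HA/ZC3H7B, a zinc finger RNA-binding protein, and the control line carried Flag/HA alone. Both lines received 100 µM s4U and 1 µg/mL doxycycline for 24 h, with fresh medium every 6 h, followed by a chase in 10 mM uridine. Chase times were 0, 2, 4 and 6 h, each with 3 libraries per line, which makes 24 in all. There was 1 line per construct, and the labels do not tell if the 3 libraries of a group were grown apart: the p-values speak of the spread among libraries, which may be technical.

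Depth ran from 1502068 to 3676254 reads a library, with 830574 to 1579744 labelled. Counts were scaled by the trimmed mean of M values (TMM) and are given as CPM, the count relative to scaled library size. The third control library at 0 h stood apart, with a TMM factor of 0.724 against 0.925 to 1.08 in the others, and 11032 entries with a read against 12005 to 13201. ZC3H7B itself had 454, 465 and 412 CPM at 0 h in ZC3H7B-OE libraries, against 348, 359 and 193 CPM in control libraries. Its mean over the 4 times was 0.28 higher on the log2 scale in ZC3H7B-OE (SE 0.078, adjusted p = 0.00350), and at 2 h the groups overlapped. The lines could not be checked against HEK293 markers, since VIM had 125 reads in all ZC3H7B-OE libraries and 116 in all control libraries and NEFM had 1 and 1. Summed CPM of the HEK293 markers was 1.16 to 12.4 in ZC3H7B-OE libraries and 1.84 to 11.7 in control libraries. The leukocyte markers PTPRC and CD3E were at 0 in every library, while the summed leukocyte markers, nearly all CD68, were at 60.1 to 132 CPM in ZC3H7B-OE libraries and 44.8 to 275 CPM in control libraries. Their part in the results was not tested.

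Glycolysis splits glucose into pyruvate in the cytosol and yields ATP without oxygen. Hexokinases trap glucose as a phosphate ester, and phosphoglucose isomerase and phosphofructokinase prepare it for cleavage by aldolase. Triose phosphate isomerase interconverts the triose phosphates, and the enzymes from GAPDH to enolase and pyruvate kinase recover the energy. Lactate dehydrogenase then regenerates NAD+. Messenger RNAs of the lower part of the pathway are abundant in most cultured lines, and several of the genes are textbook targets of the hypoxia-inducible factors (HIF).

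By count of calls, the line difference was widest at 4 h of chase, with 4 of the 8 genes called. ALDOA, TPI1, GAPDH and ENO1 were higher in ZC3H7B-OE at that time. In each of the 4 genes the lowest ZC3H7B-OE library lay above the highest control library. How many of all entries were separated in this way, at this or any other time, was not counted. The 4 calls stand beside 17.7% of all tested entries called at 4 h in either direction and 6.79% called higher. Without the control library that stood apart, 27.0% were called in either direction, and without the first control or the third ZC3H7B-OE library of 4 h, 10.2% and 11.3%. The 10 enzymes together took 0.608% ± 0.082 of the reads at 4 h in ZC3H7B-OE and 0.408% ± 0.025 in control (SD, n = 3 each). All levels are shares of a bulk library, so a change in RNA per cell, in the cells that hold it or in the rest of the library cannot be told apart.

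ENO1, which makes phosphoenolpyruvate, had 1881, 2210 and 2189 CPM at 4 h in ZC3H7B-OE, against 1357, 1273 and 1474 CPM in control. That was a difference of 0.61 on the log2 scale (SE 0.126, adjusted p = 0.000746, edgeR's quasi-likelihood test). At 0 h the order was mixed: ENO1 had 2795, 2803 and 2735 CPM in ZC3H7B-OE, against 2822, 2567 and 3717 CPM in control, with the highest value in the control library that stood apart. At 2 h it had 1563, 1696 and 1571 CPM in ZC3H7B-OE, against 1672, 1893 and 1584 CPM in control, again with overlap. At 6 h it had 1172, 1332 and 1550 CPM in ZC3H7B-OE, against 1145, 1029 and 1015 CPM in control. The groups no longer overlapped at 6 h, but the difference of 0.35 missed the threshold (SE 0.126, adjusted p = 0.0564). It passed with library totals in place of TMM (adjusted p = 0.00796), or when 1 of these libraries was left out: any control at 0 h, the first control at 2 h, replicate 3 of either line at 4 h, or the first ZC3H7B-OE library at 6 h (adjusted p 0.00564 to 0.0496). Along the 4 times the ZC3H7B-OE means ran 2778 ± 37, 1610 ± 75, 2093 ± 184 and 1351 ± 190 CPM, and the control means ran 3035 ± 604, 1716 ± 159, 1368 ± 101 and 1063 ± 72 CPM (SD, n = 3 each). The ZC3H7B-OE mean was higher at 4 h than at 2 h and the control mean was lower, a step that was not tested by itself.

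**Figure D1:**
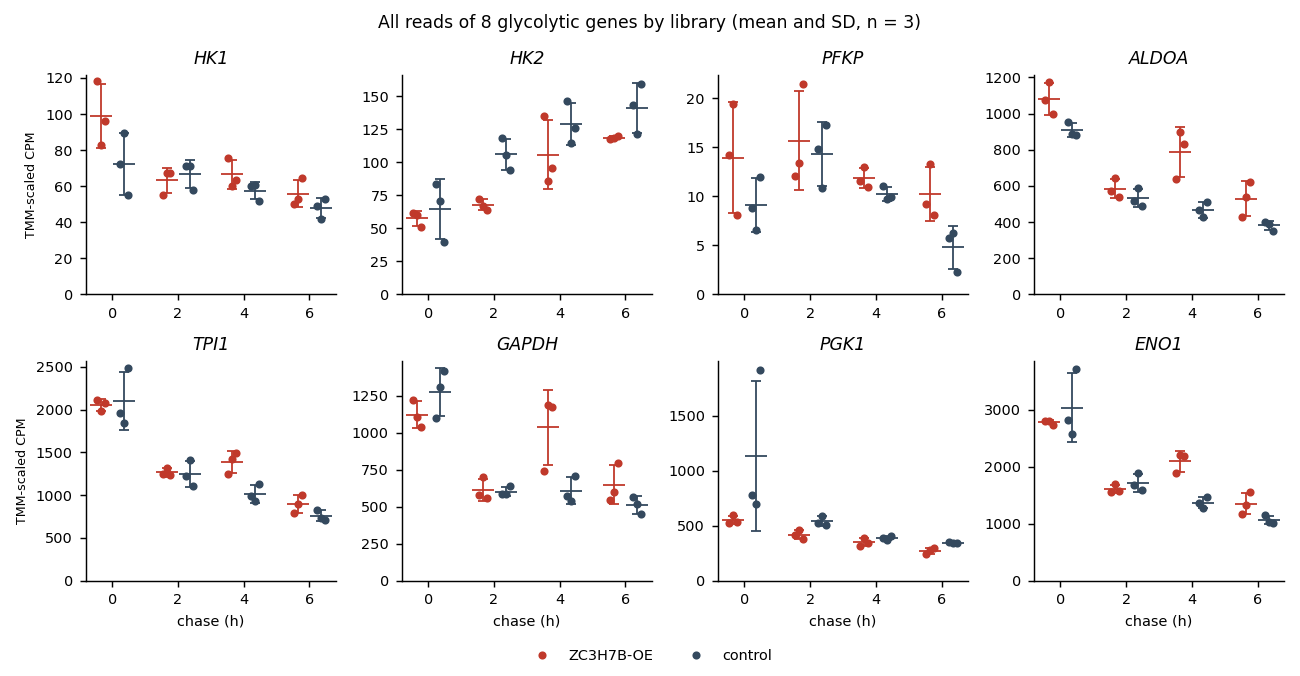
TMM-scaled CPM of all reads (y axis) by hours of chase (x axis) for the 8 genes that passed the filter; each dot is a library, and lines with bars give the mean and SD of 3 libraries in ZC3H7B-OE and in control. ENO1 at 4 h averaged 2093 CPM in ZC3H7B-OE and 1368 CPM in control, and PGK1 has its highest value, 1915 CPM, in 1 control library at 0 h.

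ENO1 was the only one of the 8 genes whose line difference changed along the chase by the test of line by time (adjusted p = 0.0313, edgeR's quasi-likelihood F test over 3 coefficients), where 1.73% of all tested entries were called. This pattern was a reason for the gene's place in the list, so the p describes it and lends it no independent support. GAPDH lay just beyond the threshold (adjusted p = 0.0530), was called by DESeq2 (adjusted p = 0.0146) and with no filter on low counts (0.000557), and passed when any of 9 libraries was left out: controls 1 or 2 at 0 h, 1 or 3 at 2 h and 3 at 4 h, and ZC3H7B-OE libraries 2 at 2 h, 1 at 4 h and 1 or 2 at 6 h (0.00907 to 0.0483). PGK1 (adjusted p = 0.307) was called with no filter (0.00540) and without control 0 h replicate 1 (0.0475) or 2 (0.0323), and the other 5 genes had adjusted p of 0.175 to 0.633. The ENO1 call ended when any of the 3 ZC3H7B-OE libraries at 0 h was left out (adjusted p 0.0642 to 0.0815), and likewise for replicate 1 (0.0723) or 2 (0.0659) of the control at 4 h, replicate 2 of ZC3H7B-OE at 4 h (0.0564) and replicate 3 of the control at 6 h (0.0577). Without the control library that stood apart it was 0.00141, and ALDOA was then called too (adjusted p = 0.0405). The share of all tested entries called by this test also moved with the library left out, over a range given in the closing section.

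ALDOA, the aldolase that cleaves fructose bisphosphate, had 636, 898 and 830 CPM at 4 h in ZC3H7B-OE, against 465, 427 and 512 CPM in control, a log2 difference of 0.75 (SE 0.136, adjusted p = 0.000192). At 6 h it had 429, 537 and 621 CPM in ZC3H7B-OE, against 403, 391 and 353 CPM in control, a difference of 0.47 (SE 0.136, adjusted p = 0.0168). That 6 h call did not survive the loss of replicate 3 of the control (adjusted p = 0.0947) or of ZC3H7B-OE (adjusted p = 0.152) at 6 h. At 0 h the ZC3H7B-OE libraries also lay above all control libraries, with a difference of 0.25 that missed the threshold (adjusted p = 0.151; with library totals in place of TMM, 0.0451), and at 2 h the groups overlapped.

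GAPDH, which couples triose oxidation to NADH, had 744, 1190 and 1172 CPM at 4 h in ZC3H7B-OE, against 575, 537 and 709.5 CPM in control. The difference of 0.77 (SE 0.158, adjusted p = 0.000762) rested on 2 high ZC3H7B-OE libraries and 1 only slightly above the highest control library. TPI1, which interconverts the triose phosphates, had 1249, 1421 and 1498 CPM at 4 h in ZC3H7B-OE, against 989, 930 and 1134 CPM in control, a difference of 0.45 (SE 0.125, adjusted p = 0.0110). The TPI1 call at 4 h did not survive the loss of control replicate 1 (adjusted p = 0.0548) or 2 (adjusted p = 0.0803) at that time. At 0, 2 and 6 h neither gene was called and the groups overlapped.

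Averaged over the 4 times, ZC3H7B-OE was higher in 5 of the 8 genes and lower in 2, against 45.8% of all tested entries called, 20.3% higher and 25.4% lower. ALDOA was higher by 0.40 (SE 0.068, adjusted p = 1.02e-05), GAPDH by 0.24 (SE 0.079, adjusted p = 0.0137), ENO1 by 0.19 (SE 0.063, adjusted p = 0.0155) and TPI1 by 0.17 (SE 0.063, adjusted p = 0.0248). PFKP, the platelet-type phosphofructokinase of the committed step, was higher by 0.53 (SE 0.185, adjusted p = 0.0183). The median over the 8 genes was 0.19, beside 0.0068 over all tested entries.

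The averages of ENO1, GAPDH and TPI1 rested on the 4 h libraries. Without that time they were 0.042, 0.060 and 0.079 with adjusted p of 0.670, 0.629 and 0.407. Leaving out 6 h ended the calls of PFKP (adjusted p = 0.216), ENO1 (0.152), TPI1 (0.101) and GAPDH (0.0745). Single libraries mattered as well: ENO1 missed the threshold without replicate 2 of ZC3H7B-OE at 2 h (adjusted p = 0.0503) or 4 h (0.0505) or replicate 2 of the control at 4 h (0.0529), and GAPDH did so without replicate 2 of ZC3H7B-OE at 2 h (0.05002) or 4 h (0.0514). PFKP missed it without replicate 2 of ZC3H7B-OE at 0 h (0.0561) or replicate 3 at 2 h (0.0585), and also when 0 h was left out of the mean (0.49, adjusted p = 0.0676). TPI1 missed it without ZC3H7B-OE libraries 1 or 2 at 2 h, 2 at 4 h or 3 at 6 h, and without controls 3 at 2 h, 2 at 4 h, or 2 or 3 at 6 h (adjusted p 0.0512 to 0.0810). ALDOA kept its call in every one of these settings.

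PGK1, the first enzyme of the pathway to yield ATP, went the other way. At 0 h it had 522, 596 and 535 CPM in ZC3H7B-OE, against 777, 700 and 1915 CPM in control. All ZC3H7B-OE libraries lay below all control libraries, and the high value of 1915 CPM came from the control library that stood apart. The log2 difference at 0 h was -1.03 (SE 0.232, adjusted p = 0.00169), beside 31.2% of all tested entries called and 19.5% called lower at that time. Without that library it was -0.42 (adjusted p = 0.00326), and 20.2% of all entries were called. PGK1 was the only gene of the 8 called at 0 h.

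At 2 h PGK1 had 414, 461 and 383 CPM in ZC3H7B-OE, against 526, 590 and 505 CPM in control. At 6 h it had 241, 279 and 293 CPM in ZC3H7B-OE, against 348, 343 and 346 CPM in control. The groups did not overlap at either time, and the log2 differences of -0.37 and -0.35 missed the threshold (adjusted p = 0.393 and 0.331, SE 0.231 each). Without control 0 h replicate 3 both were called (adjusted p = 0.00754 at 2 h and 0.00500 at 6 h), in a fit that also called more of all entries: 15.9% at 2 h, against 9.45% with the library, and 25.4% at 6 h, against 15.8% with it. At 4 h, when ALDOA, TPI1, GAPDH and ENO1 were higher, PGK1 had 315, 387 and 347 CPM in ZC3H7B-OE, against 388, 370 and 408 CPM in control, with overlap. Its mean over the 4 times was lower by 0.48 (-0.48, SE 0.115, adjusted p = 0.00177), and without 0 h the value was -0.29 (adjusted p = 0.0957). Without control 0 h replicate 3 the mean over the 4 times was smaller in size, at -0.33, and was called (adjusted p = 2.70e-07, edgeR's quasi-likelihood test). The share of all entries called for this mean in that fit is not given here.

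**Figure D2:**
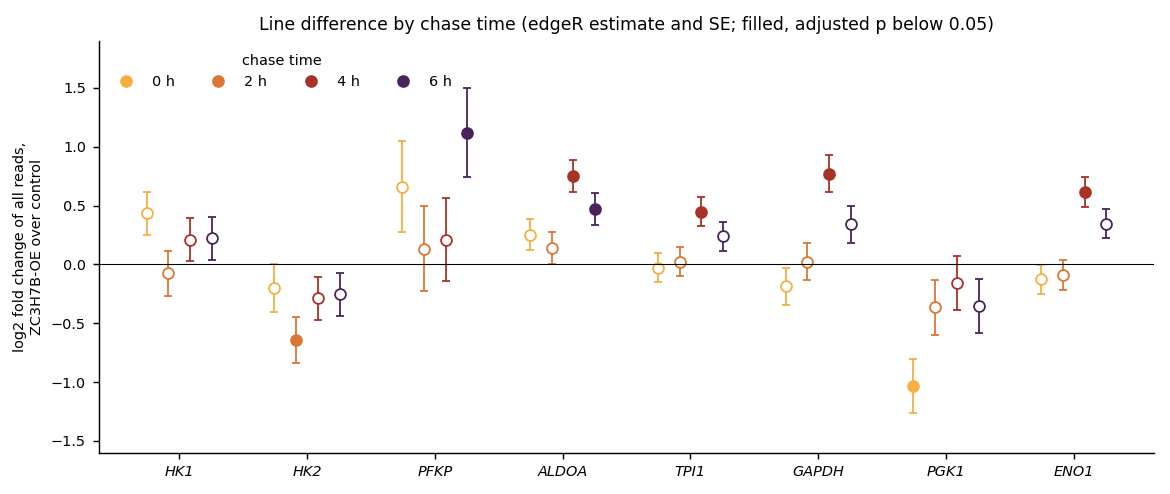
Log2 fold change of all reads in ZC3H7B-OE over control (y axis) for 8 genes (x axis) at each chase time, as edgeR estimates with SE; filled points passed the threshold. Filled points at 4 h are ENO1, GAPDH, TPI1 and ALDOA, while PGK1 is filled at 0 h only, at -1.03.

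Hexokinases, the entry step, differed from each other. HK2, the inducible isoform bound to mitochondria in many tumour lines, was lower in ZC3H7B-OE on average (-0.35, SE 0.096, adjusted p = 0.00357). At 2 h it had 72.6, 67.1 and 64.3 CPM in ZC3H7B-OE, against 118, 105.4 and 94.5 CPM in control, with no overlap and a difference of -0.64 (SE 0.196, adjusted p = 0.0323). HK2 was the only gene of the 8 called at 2 h, where 9.45% of all tested entries were called and 7.26% called lower. That call ended when any 2 h library other than the third control was left out (adjusted p 0.0544 to 0.166). Without 2 h the average of HK2 was -0.25 (adjusted p = 0.0672).

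HK1, the constitutive isoform, had 118, 82.9 and 96.2 CPM at 0 h in ZC3H7B-OE, against 72.3, 89.7 and 55.3 CPM in control. The 0 h difference of 0.43 missed the threshold (adjusted p = 0.0738) and passed without replicate 2 of the control (0.0196) or of ZC3H7B-OE (0.0427) at 0 h, and with library totals (0.0494). Without control 0 h replicate 3 it was 0.29 (adjusted p = 0.297). Its groups overlapped at every time, and its average difference of 0.20 missed the threshold (SE 0.093, adjusted p = 0.0804). Without control 0 h replicate 2 the average was called (adjusted p = 0.0338), as it was without 2 h (adjusted p = 0.0266) and with library totals in place of TMM (adjusted p = 0.0388). PFKP was thinly covered, with 8 to 47 reads a library. At 6 h it had 9.25, 13.3 and 8.06 CPM in ZC3H7B-OE, against 5.77, 6.30 and 2.29 CPM in control, with no overlap and a difference of 1.12 (SE 0.378, adjusted p = 0.0407). PFKP and ALDOA were the 2 genes called at 6 h, beside 15.8% of all tested entries called and 6.54% called higher. The PFKP call at 6 h ended when any of the 3 ZC3H7B-OE libraries or controls 1 or 3 of that time, or the first ZC3H7B-OE library of 0 h, was left out (adjusted p 0.0501 to 0.243), and with the replicate block (0.0503).

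GPI, phosphoglucose isomerase, and LDHA, the muscle-type subunit of lactate dehydrogenase, had next to no reads. GPI had 5 reads in 4 of 12 ZC3H7B-OE libraries and 1 read in 1 of 12 control libraries. LDHA had 10 reads in 3 of 12 ZC3H7B-OE libraries and 8 reads in 4 of 12 control libraries. Both were too shallow for any comparison. Both genes are usually well expressed in cultured cells. The rule by which reads were assigned to genes is not given in the sources used here, so these counts are not read as levels of expression. LDHB, the heart-type partner subunit, was well covered, with 346 to 875 reads a library.

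Along the chase most of these messages became a smaller part of the library in both lines. Between 0 and 6 h, 6 of the 8 genes fell and 1 rose in ZC3H7B-OE, and again 6 fell and 1 rose in control. Over all tested entries 63.4% were called in ZC3H7B-OE (30.6% lower, 32.8% higher) and 60.6% in control (29.9% lower, 30.7% higher). The median log2 change of the 8 genes was -0.92 in ZC3H7B-OE and -1.28 in control, beside -0.084 and -0.049 over all tested entries.

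ENO1 fell by 1.04 in ZC3H7B-OE and fell by 1.51 in control on the log2 scale (SE 0.127 and 0.128, adjusted p = 1.33e-08 and 5.51e-12). The log2 changes in ZC3H7B-OE and in control were -1.20 and -1.47 for TPI1, -1.03 and -1.25 for ALDOA, -0.79 and -1.32 for GAPDH, and -0.82 and -0.61 for HK1, all of them called. PGK1 was at -1.02 in ZC3H7B-OE and -1.70 in control, both called, where the value without the library that stood apart was -1.08. HK2 was the exception: in ZC3H7B-OE it had 61.7, 60.1 and 51.0 CPM before the chase and 117.5, 118 and 119.8 CPM after 6 h, and in control 83.6, 70.7 and 39.6 CPM before it and 143, 121 and 159 CPM after. It rose by 1.04 in ZC3H7B-OE and 1.10 in control (adjusted p = 2.46e-05 and 1.08e-05). HK1 in control lost its call without control 0 h replicate 2 (adjusted p = 0.0913). PFKP was not called, at -0.45 in ZC3H7B-OE and -0.90 in control (adjusted p = 0.269 and 0.0591). In control it passed with DESeq2 (0.0492) and when 1 of 7 libraries was left out: controls 2 at 0 h, 2 or 3 at 2 h and 2 at 6 h, and ZC3H7B-OE libraries 1 or 3 at 2 h and 2 at 6 h (0.0303 to 0.0499).

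The difference between the 2 lines in these 6 h changes was not called for any of the 8 genes by edgeR's quasi-likelihood test, although 3 of them had an unadjusted p below 0.05, and DESeq2 called 0 as well. It was 0.47 for ENO1 (SE 0.177, adjusted p = 0.160), 0.52 for GAPDH (SE 0.222, adjusted p = 0.221) and 0.68 for PGK1 (SE 0.326, adjusted p = 0.295), and 2.53% of all tested entries were called. Without control 0 h replicate 2 the PGK1 difference was 0.91 (adjusted p = 0.0394), and without control 0 h replicate 3 it was 0.059 (adjusted p = 0.932). Without that last library the ENO1 difference was 0.29 (adjusted p = 0.372) and the GAPDH difference 0.43 (adjusted p = 0.493).

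The labelled share of reads set ALDOA, TPI1, GAPDH and ENO1 apart from most messages in both lines. Over 4741 entries with at least 100 reads in every group, the median labelled share in ZC3H7B-OE was 87.4% before the chase and 28.6% after 6 h of it, and in control 88.6% and 30.1%. In ZC3H7B-OE the share of GAPDH was 39.2% at first and 38.1% after 6 h, and in control it was 42.6% and 39.1%. At 0 h only 5.61% of these entries had a lower share than GAPDH in ZC3H7B-OE and 6.05% in control. The 4 genes ALDOA, TPI1, GAPDH and ENO1 thus began with less label than most entries, and from 0 to 6 h their shares changed by -7.54 to 0.35 percentage points, where the median change was -54.55 points in ZC3H7B-OE and -55.17 in control. Their course was not flat. From 0 to 2 h the mean share rose in all 4 genes in control, and in all but ALDOA in ZC3H7B-OE, where ALDOA fell. TPI1 in ZC3H7B-OE went from 54.4% to 61.9% in that time. This read cut of 100 was set after the data had been seen.

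HK2 was at the other end, with 96.2% labelled before the chase and 25.5% after 6 h in ZC3H7B-OE, and 98.0% and 26.0% in control. HK1 had 82.5% and 46.8% in ZC3H7B-OE, and 89.8% and 42.2% in control. PGK1 lay between, at 60.5% and 47.0% in ZC3H7B-OE, and 66.5% and 53.1% in control. PGAM1, a pathway enzyme outside the list, averaged 77.0% and 46.4% in ZC3H7B-OE, and 79.6% and 49.2% in control. A low start and a small change were not particular to ALDOA, TPI1, GAPDH and ENO1, since PKM and LDHB from outside the list showed them too. PKM averaged 51.2% and 50.1% in ZC3H7B-OE, and 57.1% and 53.9% in control. LDHB averaged 55.9% and 51.1% in ZC3H7B-OE, and 56.4% and 53.1% in control. The share over all reads of a library in ZC3H7B-OE was 74.8% ± 0.42 before the chase and 29.6% ± 0.66 after 6 h, and in control 76.7% ± 1.7 and 29.9% ± 0.73 (SD, n = 3 each).

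**Figure D3:**
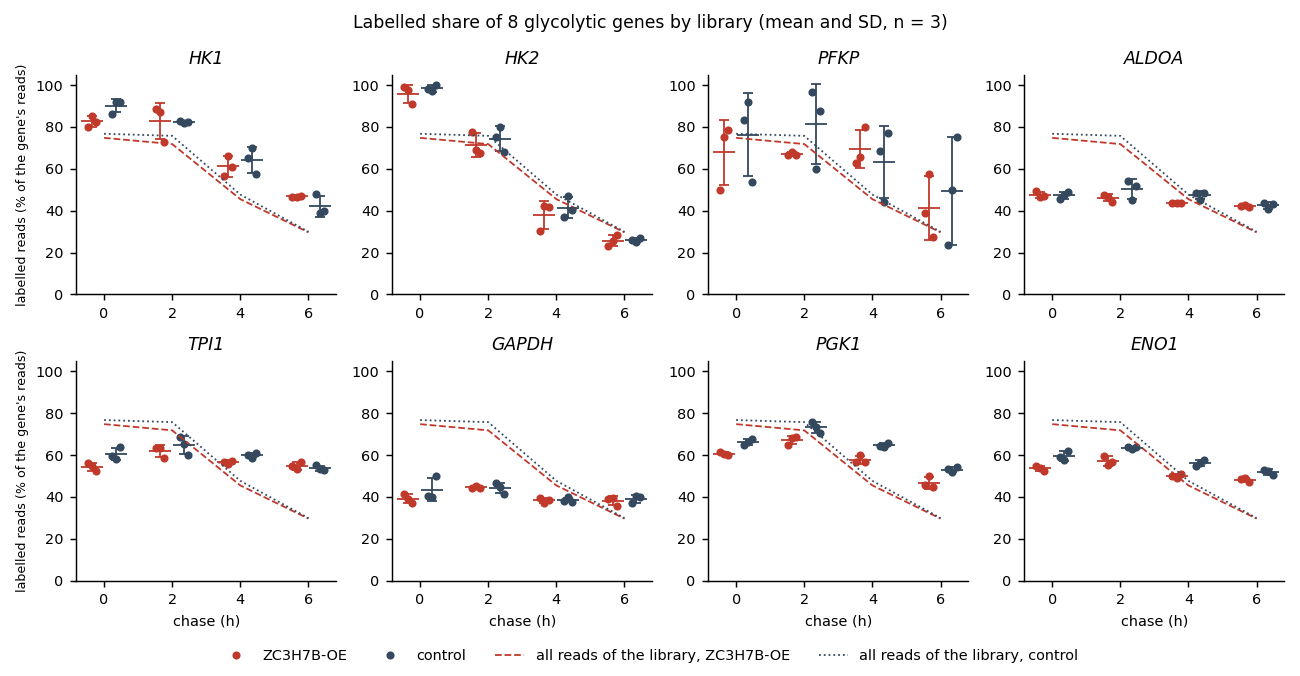
Labelled reads as a percent of each gene's reads (y axis) by hours of chase (x axis) in 8 genes; dots are libraries, lines with bars the mean and SD of 3 libraries in ZC3H7B-OE and in control, and thin lines the share over all reads of the library. GAPDH stays between 35.6% and 49.9% in every library, while HK2 starts at 90.9% or more and ends at 28.4% or less.

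ENO1 carried less label in ZC3H7B-OE at every time. Its share at 0 h was 54.8%, 54.0% and 52.3% in ZC3H7B-OE, against 59.3%, 57.6% and 62.1% in control. At 2 h it was 59.7%, 55.2% and 56.8% in ZC3H7B-OE, against 63.7%, 62.7% and 63.9% in control. At 4 h it was 50.2%, 48.8% and 50.8% in ZC3H7B-OE, against 54.7%, 56.1% and 57.6% in control. At 6 h it was 48.5%, 49.1% and 47.1% in ZC3H7B-OE, against 53.0%, 52.5% and 50.5% in control, so the groups did not overlap at any of the 4 times. This was not particular to ENO1. The shares of PGK1, and of PKM and PGAM1 from outside the list, were also lower in ZC3H7B-OE without overlap at every time. How many of all entries were separated in this way was not counted.

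The log2 odds of a labelled against an unlabelled ENO1 read differed by -0.35 at 0 h (SE 0.092, adjusted p = 0.0363), -0.38 at 2 h (SE 0.094, adjusted p = 0.00618) and -0.36 at 4 h (SE 0.092, adjusted p = 0.00996), and by -0.22 at 6 h without reaching the threshold (adjusted p = 0.180). ENO1 was the only gene of the 8 called at 0, 2 or 4 h, and none was called at 6 h. Over all entries 0.889%, 5.15%, 3.47% and 6.36% were called at 0, 2, 4 and 6 h. Most of the calls at the first 3 times were lower in ZC3H7B-OE (0.787%, 5.07% and 3.25% at 0, 2 and 4 h). The median of all entries was -0.16, -0.29, -0.15 and -0.026 at 0, 2, 4 and 6 h. At 2 h the share of the whole library was 71.8% in ZC3H7B-OE and 75.7% in control.

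The ENO1 odds call at 0 h ended when any 1 of the 3 ZC3H7B-OE libraries of that time was left out (adjusted p 0.0600 to 0.233), when control 1 (0.0965) or 3 (0.250) was, and with no filter on low counts (0.0868). The 2 h call ended without the second ZC3H7B-OE library (adjusted p = 0.0716), and the 4 h call without the third control (0.113) or the second ZC3H7B-OE library (0.0871). PGK1 had odds differences of similar size, -0.36, -0.42, -0.43 and -0.36 at 0, 2, 4 and 6 h, none of them called (adjusted p = 0.265, 0.0636, 0.0618 and 0.108). Without control 2 h replicate 3 they were called at 2 h (adjusted p = 0.0169) and 4 h (adjusted p = 0.0359), and TPI1 was called at 0 h (adjusted p = 0.0306).

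Labelled reads of these genes fell along the chase when set against all reads of the library. The slope was called in 7 of the 8 genes in ZC3H7B-OE and in all 8 in control, beside 74.3% and 77.4% of 8763 entries tested (72.3% and 75.5% with a negative slope), and every called gene had a negative slope. Set against labelled reads only, the slopes of 7 genes in ZC3H7B-OE and of GAPDH, ALDOA and HK2 in control were positive, HK2 the only one called (0.10 per h in each line, adjusted p = 0.0203 and 0.0231). The slopes below are therefore losses relative to all reads.

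The median slope of the 8 genes corresponded to an apparent half-life of 5.84 h in ZC3H7B-OE and 3.66 h in control, beside 4.10 h and 3.79 h over all tested entries. ENO1 had a slope of -0.17 log2 units per h in ZC3H7B-OE and -0.28 in control (SE 0.030 each), or apparent half-lives of 5.88 and 3.53 h. GAPDH had -0.10 in ZC3H7B-OE and -0.24 in control (SE 0.040 and 0.038), or 10.0 and 4.24 h. PGK1 had -0.23 in ZC3H7B-OE and -0.34 in control (SE 0.040 and 0.038), or 4.30 and 2.95 h. All reads of these genes fell as well from 0 to 6 h. In ZC3H7B-OE and in control the log2 changes of all reads were -1.04 and -1.51 for ENO1 and -0.79 and -1.32 for GAPDH. Their labelled shares changed little. The slopes are thus not separate from the fall of all reads, and the half-lives are not read as rates of mRNA decay. The GAPDH slope in ZC3H7B-OE was not called without its library 1 (adjusted p = 0.115) or 2 (0.0549) at 0 h, or 1 (0.102) or 2 (0.0721) at 6 h. The PFKP slope in control was not called without control 1 (0.0515) or 3 (0.0506) at 6 h. PFKP in ZC3H7B-OE, at -0.17 (adjusted p = 0.0721), was called without ZC3H7B-OE library 1 (0.0461) or 3 (0.0380) at 0 h.

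The estimated slope of each of the 8 genes was shallower in ZC3H7B-OE than in control, by the smallest margin in HK1 and HK2, where leaving out single libraries turned the sign, and no difference of slopes was called. The PGK1 difference was 0.11 and ran down to 0.013 when 1 library was left out, control 0 h replicate 3, without which its control slope was -0.25 in place of -0.34; over 2 to 6 h its sign turned (-0.00819). The differences were 0.14 per h for GAPDH (SE 0.055, adjusted p = 0.830), 0.11 for ENO1 (SE 0.042, adjusted p = 0.830) and 0.090 for TPI1 (SE 0.042, adjusted p = 0.840), and these 3 had an unadjusted p below 0.05 in edgeR's quasi-likelihood test. Over all 8763 entries the share called was 0%. From 2 to 6 h only, the slopes of GAPDH (adjusted p = 0.491) and ALDOA (0.140) in ZC3H7B-OE and of GAPDH in control (0.108) were not called, while the PFKP slope in ZC3H7B-OE was called at -0.31 (adjusted p = 0.00950).

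**Figure D4:**
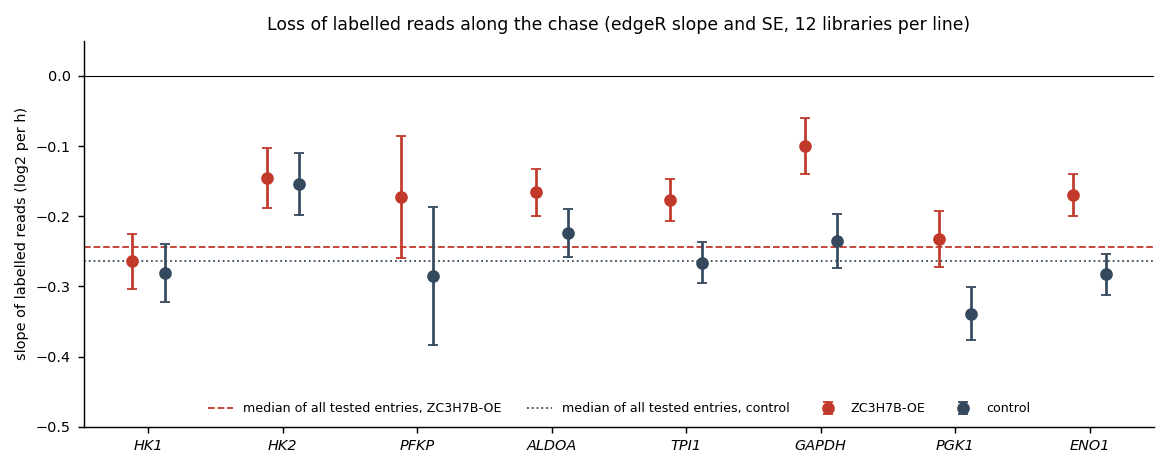
Slope of labelled reads in log2 units per h of chase (y axis) for 8 genes (x axis) in ZC3H7B-OE and in control, as edgeR estimates with SE over 12 libraries per line; horizontal lines mark the median of all tested entries. GAPDH lies at -0.10 in ZC3H7B-OE and -0.24 in control, and HK2 lies close to equal at -0.15 in both.

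The remaining enzymes of the pathway were described in the same way. Of 20 other glycolytic genes, 10 were tested and 1 was called in the mean over 4 times, ENO2, the neuronal enolase, at 0.31 (adjusted p = 0.0469). The list's median was -0.0059. At 0 h 2 of the 10 were called, both lower, with a median of -0.28, and at 4 h 1 was called, higher, with a median of 0.28. PKM, pyruvate kinase, had 3555, 3765 and 3829 CPM at 4 h in ZC3H7B-OE, against 2902, 2845 and 3334 CPM in control, with no overlap and a difference of 0.30 that missed the threshold (adjusted p = 0.0826; without control 0 h replicate 3, 0.00907). PGAM1, the mutase between PGK1 and ENO1, was lower at 0 h (-0.46, adjusted p = 0.0321), where it had 2394, 2358 and 2425 CPM in ZC3H7B-OE, against 2454, 2516 and 4903 CPM in control, the last in the library that stood apart. Without that library the PGAM1 difference was -0.055 and was not called (adjusted p = 0.769). LDHB had a mean difference of -0.09 (adjusted p = 0.399). Along the chase 2 of these 10 genes rose and 6 fell in ZC3H7B-OE, and 1 rose and 4 fell in control, with PKM, PGAM1 and LDHB falling in both.

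Among the genes of glucose and lactate transport and of fructose-2,6-bisphosphate control, 12 were tested, of which 4 were higher and 6 lower in ZC3H7B-OE (median -0.22). PFKFB4 and PFKFB3, kinases that make the activator of phosphofructokinase, were higher by 0.71 and 0.51 (adjusted p = 0.0169 and 0.0370). EMB, a chaperone of monocarboxylate carriers, and SLC2A3, a neuronal-type glucose carrier, were lower at -0.94 and -0.75 (adjusted p = 2.37e-06 and 0.000960). Of the genes of pyruvate entry into mitochondria 13 were tested, with 1 higher and 6 lower (median -0.49): PDK2 was at 0.31 (adjusted p = 0.0450), and DLD, a subunit of pyruvate dehydrogenase, and PDK4, a kinase that turns that complex off, were at -0.96 and -0.92 (adjusted p = 1.54e-05 and 0.00480).

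Of the pentose phosphate genes reported here 5 were tested, with 2 higher and 1 lower (median 0.15). TKT, transketolase, and PGD, phosphogluconate dehydrogenase, were higher by 0.46 and 0.32 (adjusted p = 0.000478 and 0.0209), and H6PD, the enzyme of the endoplasmic reticulum, was at -0.62 (adjusted p = 0.000256). Of the HIF regulators and other HIF targets 18 were tested, with 0 higher and 7 lower (median -0.30, edgeR's quasi-likelihood test). EPAS1, which encodes HIF-2 alpha, and INSIG2 were lowest at -1.24 and -1.20 (adjusted p = 0.00653 and 0.0227), while HIF1A was at -0.21 (adjusted p = 0.0561). These lists are read beside 20.3% of all tested entries called higher and 25.4% called lower.

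**Figure D5:**
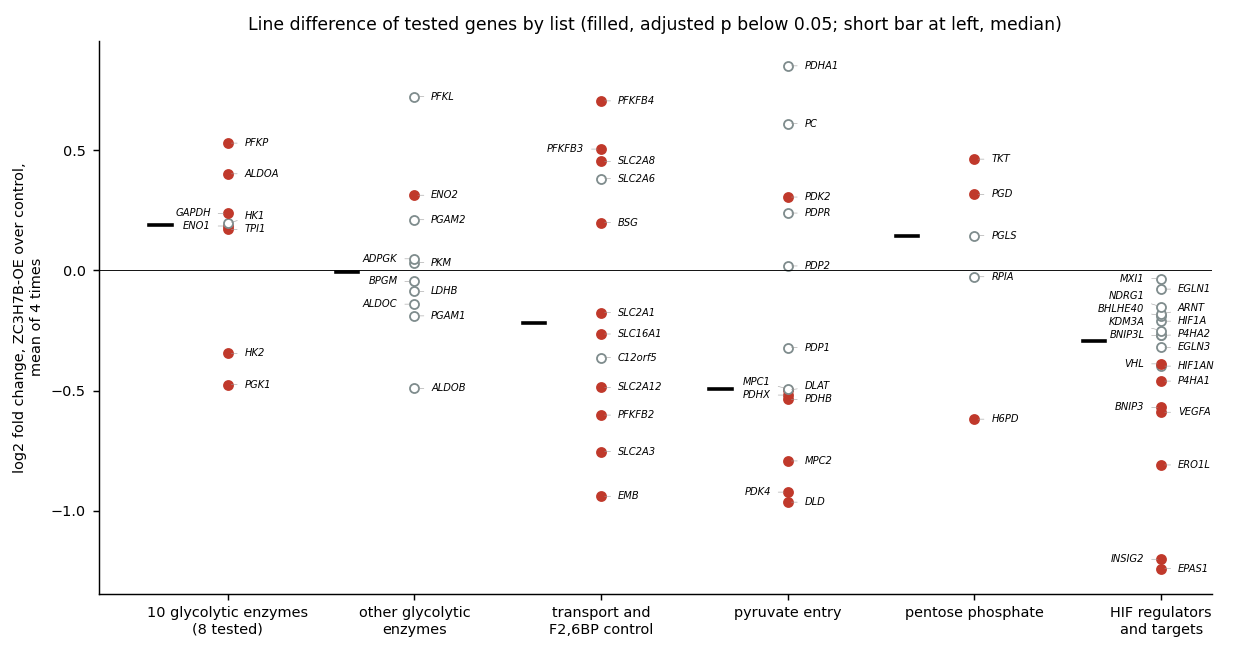
Log2 fold change of ZC3H7B-OE over control, as the mean of 4 times (y axis), for each tested gene reported here of 6 lists (x axis); filled points passed the threshold and the short bar at left is the list's median. The HIF list, with a median of -0.30, has all 7 of its filled points below 0, while the glycolytic enzymes have 5 filled points above and 2 below.

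ENO1, higher in ZC3H7B-OE in the mean of 4 times, and PGK1, lower in that mean, are shown with the 250 bases before their start in RefSeq (GRCh38.p14), written 5′ to 3′ on the gene's strand. Capitals mark ACGTG, the core of the HIF response element, on either strand. The ENO1 window is chr1:8878687-8878936 on the minus strand and the PGK1 window is chrX:78103998-78104247 on the plus strand.
ENO1: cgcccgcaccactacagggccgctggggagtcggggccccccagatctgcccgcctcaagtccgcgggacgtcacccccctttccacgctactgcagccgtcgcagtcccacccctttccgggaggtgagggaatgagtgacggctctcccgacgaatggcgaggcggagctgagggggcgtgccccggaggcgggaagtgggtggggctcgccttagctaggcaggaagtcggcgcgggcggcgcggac
PGK1: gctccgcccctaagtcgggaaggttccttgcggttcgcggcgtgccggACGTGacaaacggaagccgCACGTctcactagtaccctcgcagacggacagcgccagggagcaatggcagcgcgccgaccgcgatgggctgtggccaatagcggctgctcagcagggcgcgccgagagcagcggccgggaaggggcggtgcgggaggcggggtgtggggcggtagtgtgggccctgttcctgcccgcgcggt

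ENO1 held no match in its window, which says only that these letters are not in it, and PGK1 held 2, whose first bases lay 202 and 183 bases before the start. Over 300 bases, with the 50 after the start included, PGK1 held 3 matches and ENO1 held 0. ACGTG occurs in 7518 of 35116 windows of 300 bases in the table (21.4%), each running from 250 bases before a start to 50 after it. It occurs in 11 of the 24 windows of the 10 enzymes, in at least 1 window of 8 genes, with ENO1 and HK1 as the exceptions. Some windows of HK1 and of ALDOA overlap each other. The share of all genes with a match in at least 1 window was not counted, so the count of genes has no background here. CACGTG, which contains ACGTG, occurs in 2548 windows (7.26%) and in 4 of the 24, those being windows of HK2, LDHA, GAPDH and ALDOA. A match is a stretch of letters and not a site shown to be bound.

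The transcripts also differed in features the symbol list did not use, read from the longest coding transcript in GENCODE v29. The 3′UTR of GAPDH was 201 bases long and 15.4% T, a lower T content than in all but 1.5% of 9413 tested genes with a coding sequence, whose medians were 1044 bases and 29.8%. T content bears on this assay, since s4U takes the place of U and conversions are counted at T. ALDOA (22.6% T), ENO1 (24.2%), HK1 (24.97%) and TPI1 (27.1%) were also below the median, and HK2 (31.4%), PFKP (31.8%) and PGK1 (32.3%) were above it. T content was read in the 3′UTR only, and the sources used here do not say which part of a transcript the counted reads came from. The part of T content in the labelled shares was not tested. Codons ending in G or C made up 55.9% of PGK1 and 46.8% of LDHA, below the median of 59.5%, and 65.7% to 75.5% of the other 8 genes.

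Processed copies could take or lend reads. The annotation names 62 pseudogenes of GAPDH, 6 of LDHA, 4 each of TPI1 and ENO1, 2 of ALDOA and 1 each of HK2 and PGK1, and 0 of them has an entry in the table. Whether reads that match a pseudogene as well were kept, dropped or shared is not given in the sources used here, so the levels of GAPDH in particular are uncertain.

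Across the 24 libraries the level of ENO1 (log2 of CPM + 0.5) was most like that of TPI1 (Pearson's r = 0.985), followed by PRDX2 (0.977) and APRT (0.974), among 4561 entries with a mean of at least 5. ALDOA (0.944) and GAPDH (0.915) also ran with ENO1, PGK1 less so (0.759), and HK2 ran against it (-0.797). These points share the chase times and the lines, so the coefficients are descriptions only.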

How the data were processed

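Per the labels' protocols, RNA was alkylated, poly(A)-selected and sequenced as paired ends on a NovaSeq X+. The submitters' processing notes name fastp and the build GRCh37; not given in the sources used here: aligner, T>C caller and counting rule. The authors deposited 2 tables of whole-number counts per gene, all reads and reads with T>C conversions (called labelled here), in the same 24 libraries. Entries sharing a region (450) were kept in the fits.

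Counts were fitted with edgeR 4.0.16 (limma 3.58.1, R 4.3.3): filterByExpr with a minimum count of 10, TMM scaling, robust quasi-likelihood tests over 10038 entries, Benjamini-Hochberg adjustment and a threshold of 0.05. Labelled odds set labelled against unlabelled reads within each library (9789 entries, at least 10 of each). Slopes used labelled reads scaled by the size and TMM factor of the whole library (8763 entries). DESeq2 1.42.0, other scalings, no filter, a replicate block and leaving out each library or time were the alternatives. On simulated counts, 100% of 200 changed genes were recovered for the mean line difference and 84% for the difference of slopes. Median estimates of the changed genes were -0.99 and 1.01 log2 units for the mean, and -0.23 and 0.25 per h for the slopes. These are larger than any such difference of the 8 enzymes, so recovery at the enzymes' size was not tested. In both simulations all genes shared a single spread and no library stood apart.

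No 2 libraries of a group were alike within sampling noise (chi-square per degree of freedom 2.32 to 34.8). All 10 enzymes are named; other genes are the always-named PKM, PGAM1 and LDHB and up to 2 called genes at each end of a list (2 highest and 2 lowest), and HIF1A, chosen after its value was seen. The enzymes and lists were chosen with earlier results of these data known. 1 gene of the lists is not reported here. Transcript features came from GENCODE v29 (GRCh38), promoters from RefSeq.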

Additional observations from a re-analysis of the deposited data

Results flagged for a closer look

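ENO1 was singled out because its difference between ZC3H7B-OE and control changed along the chase (adjusted p = 0.0313, edgeR's quasi-likelihood F test). Along 0, 2, 4 and 6 h the log2 difference was -0.13, -0.092, 0.61 and 0.35. Before the chase it was 0.043 without the control library that stood apart, and the test was called in 17 of the 24 fits that left out 1 library. This change was a reason for the gene's place in the list. Neither the p nor these fits, which share most of their libraries, lend it independent support.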

How the results depend on the processing

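Of the results counted over the 8 enzymes, 64 counts under another scaling, test, filter, time range or block stayed within 1.5 times the reported count and 11 did not. Of the single enzyme values, 554 kept their direction and their side of the threshold, 22 lost a call, 11 gained one and 13 reversed. The cause of these shifts was not tested. In the mean of 4 times, 7 of 8 enzymes were called, 4 without 4 h and 3 without 6 h. With library totals in place of TMM the count was 3 at 0 h (reported: 1) and 0 at 2 h (reported: 1). With no filter on low counts it was 1 for the difference of the 6 h changes (PGK1), 3 for the interaction of line and time, and 0 for the labelled odds at 0 h, against 0, 1 and 1 as reported; DESeq2 gave 2 for the interaction. With library sizes of labelled reads, 1 slope was called in ZC3H7B-OE and 1 in control. The share of all tested entries called in each of these settings is not given here. A shift of the enzymes and a shift of all entries cannot be told apart from these counts.

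Reversed values were those of ENO1 (0.041) and TPI1 (0.135) at 0 h with library totals, and the difference of slopes of PGK1 over 2 to 6 h (-0.00819). With library sizes of labelled reads the slopes in ZC3H7B-OE reversed to 0.072 for ENO1, 0.074 for PFKP, 0.14 for GAPDH, 0.067 for TPI1, 0.075 for ALDOA, 0.10 for HK2 and 0.014 for PGK1, and those in control to 0.00652 for GAPDH, 0.020 for ALDOA and 0.097 for HK2.

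When each library was left out in turn, the share of all tested entries called ran from 20.2% to 34.2% at 0 h, 5.46% to 15.9% at 2 h, 10.2% to 27.0% at 4 h and 8.77% to 25.4% at 6 h, and from 0.456% to 8.64% for the interaction of line and time. In the same fits the count of enzymes called ran from 4 to 8 in the mean of 4 times, 1 to 2 at 0 h, 0 to 2 at 2 h and 0 to 4 at 6 h, from 0 to 3 for the interaction, 0 to 1 for the difference of the 6 h changes, and 0 to 2 for the labelled odds at 0, 2 and 4 h. For the mean of 4 times, the 6 h changes and the labelled odds, the matching share of all entries is not given here. Reversals were seen in uncalled values: the line difference of ENO1 (-0.23 to 0.043), TPI1 (-0.10 to 0.11) and HK2 (-0.42 to 0.00656) at 0 h and of GAPDH (-0.084 to 0.082), TPI1 (-0.055 to 0.12) and PFKP (-0.17 to 0.29) at 2 h, the HK2 difference of 6 h changes (-0.24 to 0.15), and the difference of slopes of HK1 (-0.00365 to 0.042) and HK2 (-0.012 to 0.051). The labelled odds that reversed were those of ALDOA (-0.041 to 0.052) and HK2 (-1.44 to 0.21) at 0 h, GAPDH (-0.062 to 0.081) and HK1 (-0.21 to 0.63) at 2 h, GAPDH (-0.036 to 0.039), HK2 (-0.36 to 0.043) and PFKP (-0.21 to 0.76) at 4 h, and ALDOA (-0.077 to 0.017), GAPDH (-0.13 to 0.018), HK2 (-0.13 to 0.067) and PFKP (-0.96 to 0.33) at 6 h.

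The titles number the libraries of each group, and same-numbered libraries did not deviate together (correlation of deviations -0.161 to 0.206 over 84 pairs, and -0.172 to 0.215 over 168 differently numbered pairs), so the numbers were not treated as pairs. With the replicate block, 1 enzyme was called at 6 h (reported: 2; PFKP adjusted p = 0.0503) and no other count of calls over the enzymes changed. Depth limits PFKP, with 8 to 47 reads a library, and leaves GPI and LDHA without any comparison; the third control library at 0 h limits every value at that time.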
